A study of Mus musculus with 15 samples.

Results

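Hox cluster genes encode homeodomain transcription factors, and they were followed here in the colon of mice with chemically injured mucosa. They were taken by symbol, as every protein-coding gene of GENCODE mouse release M21 whose name is Hox, a cluster letter from a to d and a number. The rule gave 39 of the 55335 genes in the data, with 11 in cluster a, 10 in cluster b, 9 in cluster c and 9 in cluster d. RNA was sequenced from colon tissue of 15 mice in 3 groups of 5. DSS_ICB_Fp mice had dextran sulfate sodium (DSS), a polymer that damages the colon lining, immune checkpoint blockade and a gavage of the gut bacterium Faecalibacterium prausnitzii. DSS_ICB mice had DSS and the blockade, and DSS mice had DSS with nothing further by their label. DSS was thus common to all 15 mice, and no mouse without it is in the data. The labels name no strain, age, antibody, control gavage, cage or part of the colon, so effects of a treatment and of its handling cannot be told apart.

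Hox genes sit side by side in 4 clusters, and the low numbers are switched on early and toward the head while the high numbers are switched on late and toward the tail. In the gut this order persists in the adult, where mesenchyme and epithelium keep a Hox pattern that reflects their position from stomach to rectum. Genes with the same number in different clusters are called paralogs and arose by duplication of 1 ancestral cluster. Levels are given in FPKM, fragment numbers divided by transcript length and by the size of the library. The summed FPKM over all genes still ran from 341054 in DSS_ICB 5 to 443338 in DSS_ICB 3, so comparisons between mice are approximate.

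The clusters carry their own small regulators, printed here because the hairpin gene between Hoxb13 and Hoxb9 had values of its own in the data. The mature miRNAs are shown 5′ to 3′ from RefSeq (GRCm38.p6), with the seed, bases 2 to 8, in capitals. Members of the miR-196 family share 1 seed and members of the miR-10 family share another.
miR-196a (Mir196a-1, chr11:96265187-96265208, plus strand): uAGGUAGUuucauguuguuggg
miR-196b (Mir196b, chr6:52230129-52230150, minus strand): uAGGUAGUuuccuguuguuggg
miR-10a (Mir10a, chr11:96317186-96317208, plus strand): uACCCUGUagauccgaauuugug
miR-10b (Mir10b, chr2:74726074-74726096, plus strand): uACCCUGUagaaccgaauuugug
The letters ACTACCT, which pair with the whole miR-196 seed, were searched for on the transcript strand of the longest annotated untranslated tail of each gene (GENCODE M21). They were found in 9 of 39 Hox genes (23.1%), against 1438 of 21154 coding genes with such a tail (6.8%). Hoxb8, the known mouse target that miR-196 cuts, had no copy of these letters, but a stretch of its tail matched miR-196a at 21 of 22 bases. Hoxa7 held 4 copies, more than any other Hox gene, and Hoxb7 and Hoxa9 held 1 each. These windows, shown with the bases that face the seed in capitals, are from GENCODE M21 transcripts.
Hoxb8 (chromosome 11): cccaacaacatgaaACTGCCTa
Hoxb7 (chromosome 11): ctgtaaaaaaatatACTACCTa
Hoxa7 (chromosome 6): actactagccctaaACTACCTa
Hoxa9 (chromosome 6): caaaaggaaagaaaACTACCTt
A match of letters is a description and not a measured site.

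Markers of cell types were looked up, and all 10 epithelial and all 10 smooth muscle markers were above 0 in each group. This does not test the tissue label, since all 6 squamous anal epithelium markers were also above 0 in each group. Of the kidney or urogenital list, Upk1a had a median of 5.68 FPKM over 15 mice and Umod was at 0 in all 15. Estimated depths ran from 15.2 to 24.7 M (mega) fragments. Mouse DSS_ICB 3 stood apart. Its summed smooth muscle markers reached 17526 FPKM, against 1329 to 5577 FPKM in the other 14 mice, and its summed epithelial markers reached 823 FPKM, against 4168 to 7737 FPKM. The main values that rest on this mouse are also given without it. In bulk tissue, fewer cells of a type and less RNA per cell cannot be told apart.

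The posterior Hox genes dominated the colon in all groups. The genes numbered 9 to 13 made up 88.3% ± 1.32 of the summed Hox FPKM in DSS_ICB_Fp mice, 81.2% ± 9.55 in DSS_ICB mice and 87.6% ± 1.35 in DSS mice (SD, n = 5 each). The single shares were 89.5%, 88.2%, 89.6%, 87.4% and 86.6% in DSS_ICB_Fp mice, 87.6%, 86.1%, 64.7%, 86.6% and 80.9% in DSS_ICB mice, and 87.7%, 89.2%, 85.7%, 87.2% and 88.4% in DSS mice. The low values were those of DSS_ICB 3 and DSS_ICB 5, and the other 13 mice lay between 85.7% and 89.6%. Without DSS_ICB 3 the mean of DSS_ICB mice was 85.3%. The summed Hox FPKM was 352 ± 34.8 in DSS_ICB_Fp mice, 253 ± 78.5 in DSS_ICB mice and 302 ± 40.5 in DSS mice.

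**Figure D1:**
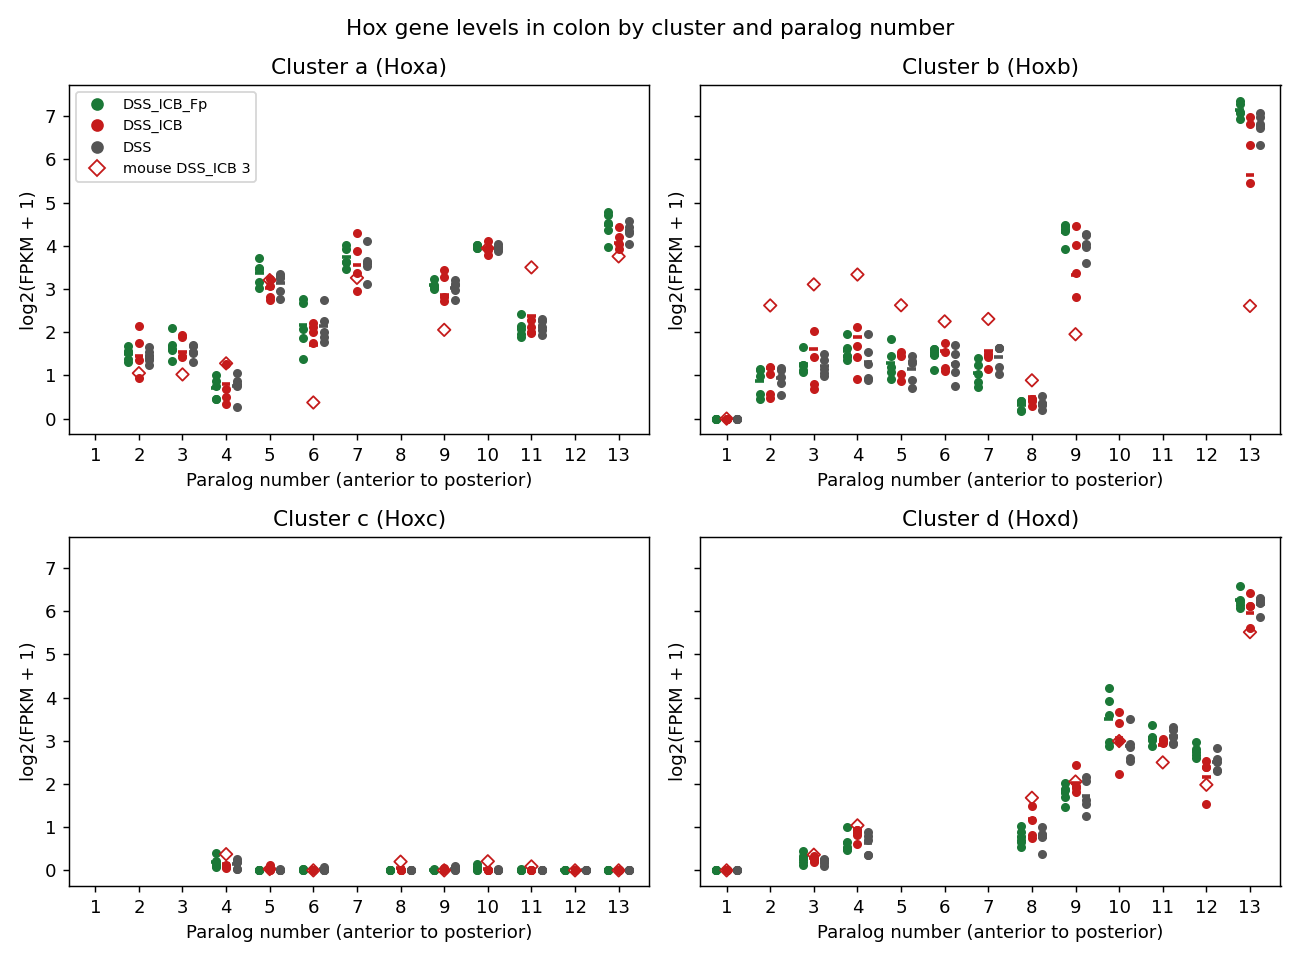
Levels of Hox genes on the log2(FPKM + 1) scale against paralog number, one panel per cluster, with a point per mouse and a bar at the mean of each group; the open diamond is mouse DSS_ICB 3. The highest values are at number 13 in clusters a, b and d, and cluster c stays near 0.

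Hoxb13, at chr11:96194316-96197447 on GRCm38, was the most abundant member with a mean of 108.7 FPKM over 15 mice. It encodes the factor of the tail end of the b cluster, known for its part in prostate and tail development and for expression in the distal colon. Hoxd13 followed at 70.1 FPKM, and its gene is needed in mice for digits and for the muscle of the anal sphincter. Hoxa13, needed for the hindgut and the genital tubercle, came next at 19.0 FPKM. Hoxd13 lay above Hoxa13 in every mouse and their ranges did not overlap, while Hoxb13 lay above Hoxd13 in 13 of 15 mice, the exceptions being DSS_ICB 3 and DSS_ICB 5. The neighbours below Hoxa13 in this order overlapped over the mice, from Hoxb9 at 15.2 FPKM and Hoxa10 at 14.6 FPKM down to Hoxb2 at 1.15 FPKM.

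In each of the 3 clusters in use the levels were higher toward the high numbers. Over genes within a cluster, which are not independent replicates, the rank correlation (Spearman rho) of paralog number with mean FPKM was 0.933 over 9 genes in cluster d, 0.827 over 11 in cluster a and 0.552 over 10 in cluster b. In cluster d the level climbed from 0 FPKM for Hoxd1 through 0.195 for Hoxd3, 0.655 for Hoxd4, 0.920 for Hoxd8 and 2.68 for Hoxd9 to 8.53 for Hoxd10 and 7.22 for Hoxd11, dipped to 4.71 for Hoxd12 and ended at Hoxd13. Hoxd3 and Hoxd4 share 62.4% and 52.3% of their exon bases with other genes on the same strand, each other included, so fragments may have been split between them. Hoxd13 was the highest tested d member in all 15 mice, and Hoxa13 was the highest tested a member in 14 of 15, with Hoxa10 ahead in DSS_ICB 3.

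Cluster a was the most even. Hoxa2 was at 1.81 FPKM, Hoxa3 at 2.06 and Hoxa4 at 0.732, which are genes of the hindbrain and neck in the embryo. The trunk genes were higher, with Hoxa5, known for lung and stomach development, at 8.18 FPKM, Hoxa6 at 3.28 and Hoxa7 at 11.8. Hoxa9 was at 7.12 FPKM, Hoxa10, a gene of the lumbar spine and uterus, at 14.6, and Hoxa11, a gene of forearm and kidney, at 3.81.

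In cluster b the low and middle numbers were a plateau. Hoxb2 to Hoxb7, genes of hindbrain and trunk patterning, ranged only from 1.15 FPKM for Hoxb2 to 2.34 FPKM for Hoxb4, with Hoxb3 at 1.84, Hoxb5 at 1.64, Hoxb6 at 1.78 and Hoxb7 at 1.65. Hoxb1 was listed at 0 in all 15 mice and Hoxb8 averaged 0.316 FPKM. The step came at Hoxb9, a thoracic gene, and was larger at Hoxb13.

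Cluster c was almost silent. Its highest member was Hoxc4 with a mean of 0.119 FPKM. Hoxc12 and Hoxc13, of which Hoxc13 is known for hair and nail, were listed at 0 in all 15 mice. Hoxc5, Hoxc6, Hoxc8, Hoxc9, Hoxc10 and Hoxc11 were at 0 in 9 to 13 of 15 mice and averaged at most 0.0247 FPKM. In total 22 of 39 members passed the filter of 1 FPKM in at least 5 mice and were tested, 9 of cluster a, 8 of cluster b, none of cluster c and 5 of cluster d. Among the 17 others were Hoxa4, Hoxb1, Hoxb8, the Hoxc genes, Hoxd1, Hoxd3, Hoxd4 and Hoxd8.

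The promoters of Hoxd13 and Hoxb4 are shown because Hoxb4 had its highest and Hoxd13 its lowest level in the same mouse, DSS_ICB 3. Each is a 300 base window from 250 bases before to 50 bases after the annotated start (RefSeq, GRCm38.p6, sense strand), with the pair CG in capitals.
Hoxd13 (chr2:74667975-74668274, plus strand): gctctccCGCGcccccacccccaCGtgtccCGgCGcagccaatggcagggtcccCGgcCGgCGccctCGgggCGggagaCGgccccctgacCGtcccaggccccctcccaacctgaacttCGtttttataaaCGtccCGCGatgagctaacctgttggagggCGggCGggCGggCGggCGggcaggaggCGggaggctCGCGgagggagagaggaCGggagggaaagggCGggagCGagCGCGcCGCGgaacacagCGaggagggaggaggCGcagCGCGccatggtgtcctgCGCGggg
Hoxb4 (chr11:96318017-96318316, plus strand): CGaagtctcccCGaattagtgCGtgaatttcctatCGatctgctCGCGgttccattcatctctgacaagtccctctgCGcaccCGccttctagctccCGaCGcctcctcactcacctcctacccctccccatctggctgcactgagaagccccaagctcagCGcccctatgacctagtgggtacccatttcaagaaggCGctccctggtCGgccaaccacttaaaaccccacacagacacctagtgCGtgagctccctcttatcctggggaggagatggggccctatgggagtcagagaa
The Hoxd13 window holds 37 CG pairs and the Hoxb4 window 14. Windows were matched for 22 Hox genes, 24 windows in all, of which 70.8% held at least 10 CG pairs, against 43.5% of 32851 windows of all genes. These are not the 22 tested genes, since they include untested members such as Hoxb1, Hoxb8 and Hoxd1, and Hoxb13 had no matched window. The letters TTTAT, an AT-rich core that posterior Hox and Cdx factors are known to bind, were searched on both strands. They were in 37.5% of the Hox windows and in 40% of all windows, so these letters were no more frequent at the Hox genes.

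The level of a member in the colon was steady for some genes and loose for others. Hoxa10 was the flattest, with FPKM of 15.3, 15.3, 14.7, 14.4 and 14.6 in DSS_ICB_Fp mice, 14.3, 16.4, 14.4, 14.1 and 12.7 in DSS_ICB mice, and 13.8, 15.4, 14.7, 14.8 and 14.1 in DSS mice. The groups overlapped fully, and the coefficient of variation over 15 mice was 5.65%. The coefficient of variation was 15.5% for Hoxd11 and 18.3% for Hoxd13, but 101% for Hoxb2, 92.8% for Hoxb3 and 85.8% for Hoxb4. Without DSS_ICB 3 these 3 values were 41.3%, 43.8% and 41.5%, and that of Hoxa10 was 5.84%.

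**Figure D2:**
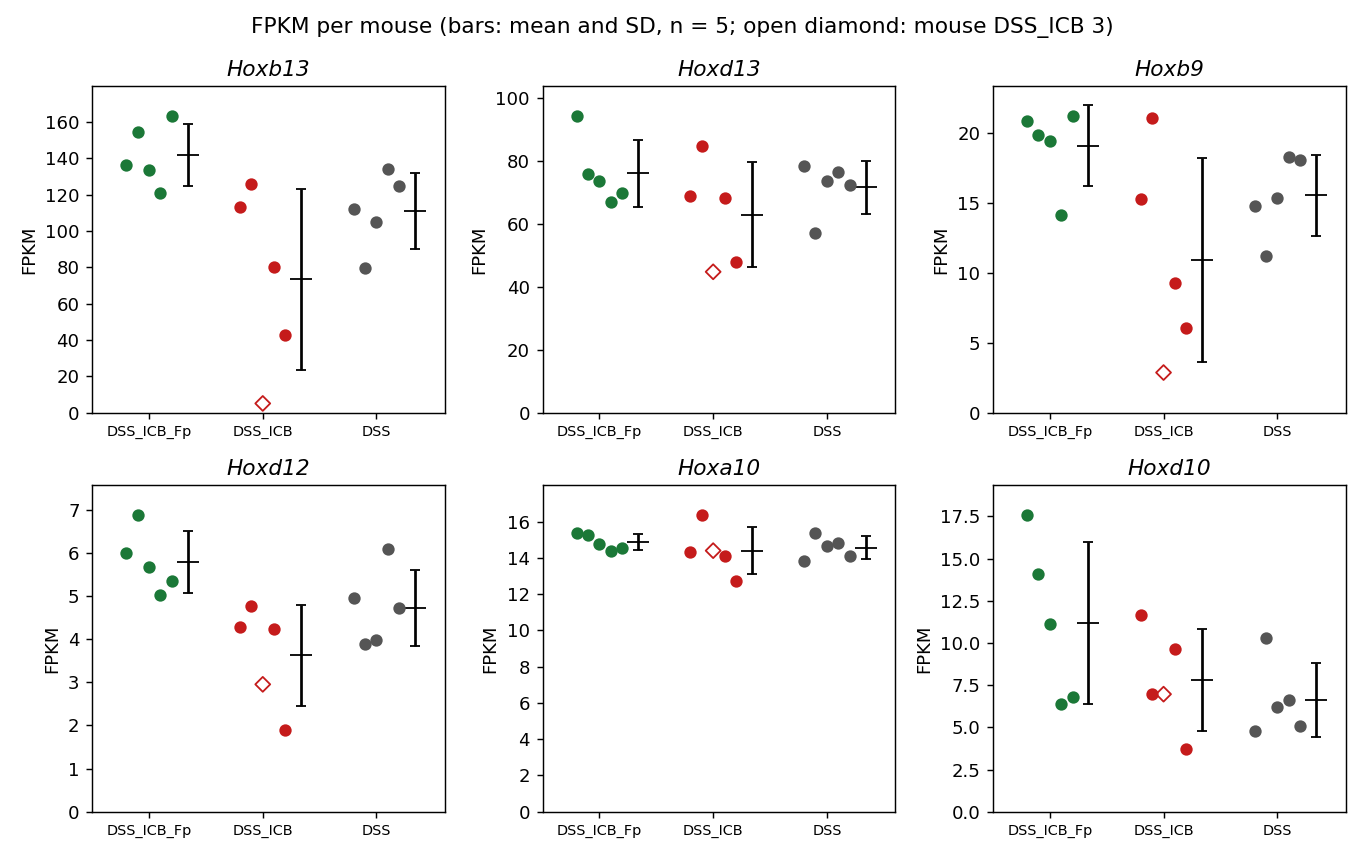
FPKM of 6 Hox genes per mouse, with the mean and SD of each group of 5 mice beside the points; each panel starts at 0 and has its own scale. Hoxa10 lies between 12.7 and 16.4 FPKM in all mice, while Hoxb13 is at 5.10 FPKM in mouse DSS_ICB 3.

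The first comparison, DSS_ICB mice with DSS mice, addresses the effect of the blockade on top of DSS. Of the 22 tested Hox genes none passed with limma at an adjusted p under 0.05, and none had an unadjusted p under 0.05 in either direction. Over all 14385 genes tested, 0.0209% passed, and 7.08% were higher and 4.22% lower at an unadjusted p under 0.05. All 22 Hox genes overlapped between the groups, where 1.21% of all genes tested lay wholly higher and 0.327% wholly lower. The median log2 change of the 22 genes was -0.01, with 11 above 0 and 11 below, beside a median of 0.02 over all genes tested.

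The genes with the smallest p were posterior. Hoxb13 was at 113, 126, 5.10, 79.9 and 42.6 FPKM in DSS_ICB mice, and at 112, 79.4, 105, 134 and 125 FPKM in DSS mice. The groups overlapped, and DSS_ICB 3 and DSS_ICB 5 lay below all DSS mice. The fitted log2 change was -1.14 ± 0.61 (SE, limma adjusted p = 0.463). It was -0.38 ± 0.26 without DSS_ICB 3 and -0.07 ± 0.19 without DSS_ICB 3 and DSS_ICB 5.

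Hoxb9 showed the same mice at the low end, with 15.3, 21.1, 2.87, 9.31 and 6.03 FPKM in DSS_ICB mice and 14.8, 11.2, 15.4, 18.3 and 18.1 FPKM in DSS mice. Its log2 change was -0.71 ± 0.35 (SE, limma adjusted p = 0.454), -0.36 ± 0.26 without DSS_ICB 3 and -0.08 ± 0.22 without DSS_ICB 3 and DSS_ICB 5. Hoxd12, a gene of digits and distal gut muscle, was at 4.27, 4.77, 2.95, 4.22 and 1.88 FPKM in DSS_ICB mice and at 4.95, 3.89, 3.97, 6.07 and 4.72 FPKM in DSS mice, with overlap. Its log2 change was -0.34 ± 0.18 (SE, limma adjusted p = 0.46), -0.18 ± 0.14 without DSS_ICB 5 and -0.07 ± 0.13 without DSS_ICB 3 and DSS_ICB 5.

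The second comparison, DSS_ICB_Fp mice with DSS_ICB mice, asks what the bacterium adds to blockade. Again none of the 22 Hox genes passed with limma, where 0.132% of all genes tested did, 0.00695% higher and 0.125% lower. At an unadjusted p under 0.05, 5 Hox genes were on the higher side (Hoxd12, Hoxb9, Hoxb13, Hoxa13 and Hoxa5) and 1, Hoxb7, on the lower side, where the shares of all genes tested were 9.34% higher and 12.4% lower. Without DSS_ICB 3 these counts were 4 higher and 0 lower. The median log2 change was 0.15, with 14 of 22 above 0, beside a median of -0.04 over all genes tested. It was 0.07 without DSS_ICB 3, 0.06 without DSS_ICB 5 and 0.08 without DSS_ICB_Fp 5.

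Hoxd12 was the member with the smallest p. It was at 6.001, 6.87, 5.68, 5.02 and 5.35 FPKM in DSS_ICB_Fp mice, against 4.27, 4.77, 2.95, 4.22 and 1.88 FPKM in DSS_ICB mice. All 5 DSS_ICB_Fp mice lay above all 5 DSS_ICB mice, which was true of no other tested Hox gene and of 0.945% of all genes tested; no Hox gene lay wholly lower, where 2.46% of all genes tested did. The log2 change was 0.59 ± 0.18 (SE, limma adjusted p = 0.103), and 0.32 ± 0.13 (limma adjusted p = 0.24) without DSS_ICB 3 and DSS_ICB 5.

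Hoxb13 was at 136, 155, 133, 121 and 163 FPKM in DSS_ICB_Fp mice, against 113, 126, 5.10, 79.9 and 42.6 FPKM in DSS_ICB mice. Of the 5 DSS_ICB_Fp mice 4 lay above every DSS_ICB mouse, and DSS_ICB 2 overlapped with the lowest of them. The log2 change was 1.51 ± 0.61 (SE, limma adjusted p = 0.174). It was 0.75 ± 0.26 without DSS_ICB 3 (limma adjusted p = 0.125) and 0.43 ± 0.19 without DSS_ICB 3 and DSS_ICB 5 (limma adjusted p = 0.252).

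Hoxb9 was at 20.9, 19.8, 19.5, 14.1 and 21.2 FPKM in DSS_ICB_Fp mice, against 15.3, 21.1, 2.87, 9.31 and 6.03 FPKM in DSS_ICB mice. The groups overlapped, since DSS_ICB 2 was as high as the upper DSS_ICB_Fp mice. The log2 change was 0.99 ± 0.35 (SE, limma adjusted p = 0.141) and 0.65 ± 0.26 without DSS_ICB 3. It was 0.365 ± 0.222 without DSS_ICB 3 and DSS_ICB 5 (limma adjusted p = 0.398). Hoxa13 averaged 21.6 ± 4.68 FPKM in DSS_ICB_Fp mice and 16.04 ± 3.11 FPKM in DSS_ICB mice (SD, n = 5 each). Hoxa5 averaged 9.48 ± 1.96 FPKM in DSS_ICB_Fp mice and 7.19 ± 1.23 FPKM in DSS_ICB mice. Hoxb7 averaged 1.105 ± 0.407 FPKM in DSS_ICB_Fp mice and 2.09 ± 1.07 FPKM in DSS_ICB mice, and its log2 change was -0.52 ± 0.21 (SE, limma adjusted p = 0.175), and -0.33 ± 0.17 without DSS_ICB 3.

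Cell type markers differed in the same samples. Between DSS_ICB_Fp and DSS_ICB mice, all 10 epithelial markers were above 0 in log2 change, with a median of 0.70, all 6 endothelial and all 8 fibroblast markers were below 0, with medians of -0.69 and -0.745, and none passed with limma. All 5 tested immune markers were also below 0, with a median of -0.87, as were all 10 smooth muscle markers, with a median of -0.30, and none of these passed. At an unadjusted limma p under 0.05, 6 of 6 endothelial, 6 of 8 fibroblast and 3 of 5 immune markers were lower. Of all genes tested, 12.4% were lower at that level. No epithelial or smooth muscle marker was past it in either direction. The medians and counts of these marker lists include DSS_ICB 3 and are not given without it. The summed epithelial markers ran from 5218 to 7737 FPKM in DSS_ICB_Fp mice, from 823 to 6917 FPKM in DSS_ICB mice (from 4168 FPKM without DSS_ICB 3) and from 5224 to 6829 FPKM in DSS mice. The summed fibroblast markers ran from 300 to 597 FPKM in DSS_ICB_Fp mice, from 546 to 946 FPKM in DSS_ICB mice and from 365 to 554 FPKM in DSS mice. Their part in the Hox values was not tested.

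The third comparison, DSS_ICB_Fp mice with DSS mice, sets blockade and bacterium together against DSS alone. It shares its mice with the other comparisons. None of the 22 Hox genes passed with limma or had an unadjusted p under 0.05, and 0% of all genes tested passed, with 0.591% higher and 0.82% lower at an unadjusted p under 0.05. All 22 overlapped between the groups, where 0.195% of all genes tested lay wholly higher and 0.195% wholly lower. The median log2 change was 0.10, with 18 of 22 above 0, beside a median of -0.01 over all genes tested. The spread used for these p-values includes the DSS_ICB mice, which are not compared here. In a fit of the 2 compared groups, 2 Hox genes were higher and 1 lower at an unadjusted p under 0.05. Of all 14385 genes tested, 274 were higher and 358 lower there. Without DSS_ICB 3 and DSS_ICB 5, 3 Hox genes were higher and 1 lower, beside 285 and 431 of all genes tested. None passed in either fit.

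Hoxd10, a gene of the hindlimb and its motor neurons, had the smallest p. It was at 17.6, 14.1, 11.1, 6.37 and 6.79 FPKM in DSS_ICB_Fp mice and at 4.80, 10.3, 6.20, 6.63 and 5.09 FPKM in DSS mice. Of the DSS_ICB_Fp mice 3 lay above all DSS mice and the others lay among them. The log2 change was 0.63 ± 0.30 (SE, limma adjusted p = 0.9997). Hoxb7 followed with -0.38 ± 0.21 and Hoxa5 with 0.24 ± 0.16, at the same adjusted p.

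**Figure D3:**
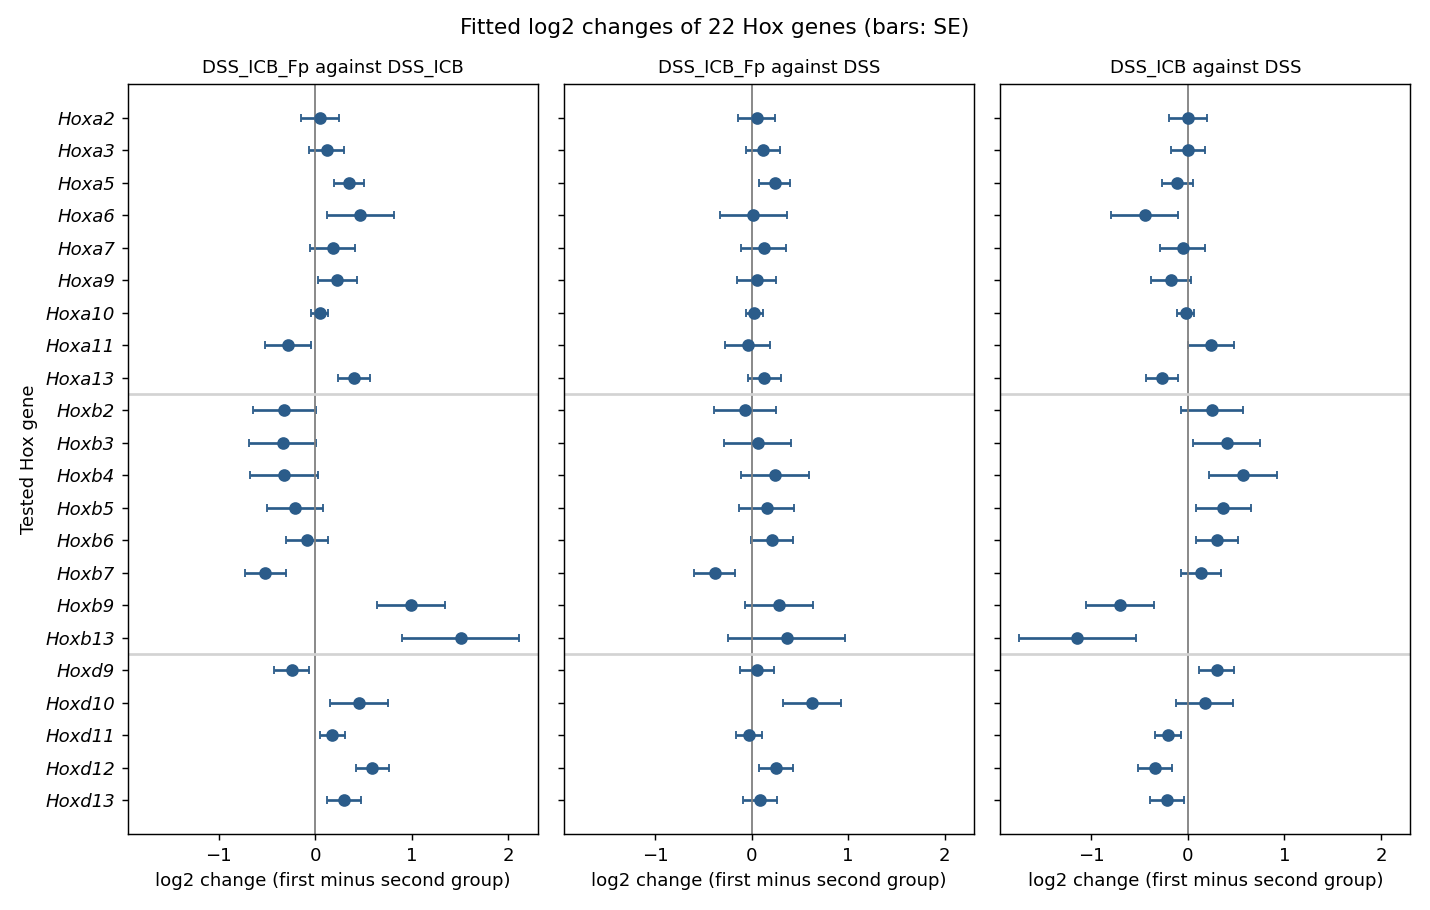
Fitted log2 changes of the 22 tested Hox genes with their SE in 3 comparisons, the first-named group minus the second; grey lines part clusters a, b and d. No change passed at an adjusted p under 0.05, and the largest is 1.51 for Hoxb13 in DSS_ICB_Fp against DSS_ICB.

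The widest differences between mice were in DSS_ICB 3. Of the 22 tested genes it was above the other 14 mice in 7 (Hoxa11 and Hoxb2 to Hoxb7), below them in 8 (Hoxa3, Hoxa6, Hoxa9, Hoxa13, Hoxb9, Hoxb13, Hoxd11 and Hoxd13) and within them in 7. Hoxb3 was at 7.62 FPKM there, which is 5.90 times the median of the other mice, Hoxb4 at 9.10 FPKM and Hoxb2 at 5.15 FPKM, each 5.29 times that median. Hoxb13, at 5.10 FPKM, was 0.0415 times the median of the others, while Hoxd13, at 44.8 FPKM, was 0.614 times and Hoxa10 0.985 times.

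Cluster b thus split within this mouse. The summed FPKM of Hoxb1 to Hoxb7 was 34.7 in DSS_ICB 3, against 4.74 to 12.7 in the other mice, and Hoxb13 made up 2.97% of its summed Hox FPKM. In DSS_ICB_Fp mice Hoxb13 made up 40.2% ± 2.75, in DSS_ICB mice 26.1% ± 14 and in DSS mice 36.6% ± 2.72 (SD, n = 5 each). DSS_ICB 5 was the lowest of 15 mice in 6 of 22 genes and the highest in none; its posterior share was 80.9%, and its summed Hox FPKM of 182 was close to the 172 of DSS_ICB 3.

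**Figure D4:**
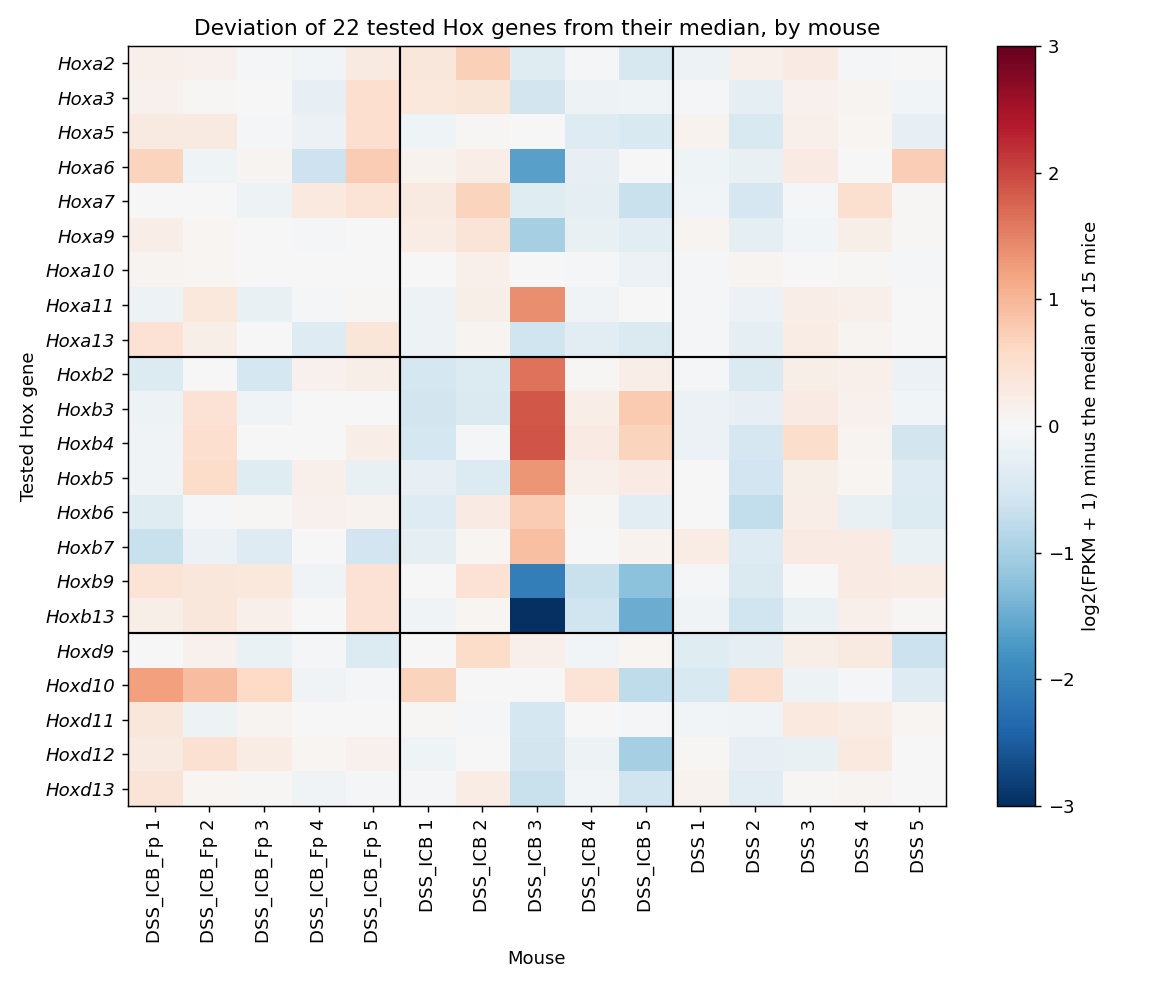
Each tested Hox gene (rows, grouped by cluster) in each mouse (columns, grouped by treatment) as log2(FPKM + 1) minus the gene's median over 15 mice, red above and blue below. Mouse DSS_ICB 3 is red from Hoxb2 to Hoxb7 and at Hoxa11, and blue at Hoxb9 and Hoxb13.

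Hoxb2, Hoxb3 and Hoxb5 were related to the smooth muscle marker level of a sample also without DSS_ICB 3. The marker level of a mouse was the mean log2(FPKM + 1) of 10 smooth muscle genes such as Acta2 and Myh11, or of 10 epithelial genes such as Epcam and Vil1, and each of the 22 genes was compared with both, 44 relations in all. Relations with other cell type lists were not computed. The enteric neuron level, like the muscle level, was lowest in DSS_ICB 2 (1.11) and highest in DSS_ICB 3 (3.10). For Hoxb5 and the muscle level, Pearson r was 0.895 (permutation p = 8e-05, adjusted p = 0.00117) and Spearman rho 0.839 (permutation p = 0.00025, adjusted p = 0.0055) over 15 mice. Without the 2 mice farthest from the median muscle level r was 0.748, and without DSS_ICB 3 r was 0.768 (permutation adjusted p = 0.0255) and rho 0.802 (permutation adjusted p = 0.022). Hoxb3 had r of 0.891 and Hoxb2 of 0.907 over 15 mice, and 0.751 and 0.800 without DSS_ICB 3 (permutation adjusted p = 0.0255 each). Without that mouse the other b genes of the plateau did not pass, with r of 0.651 for Hoxb4 (permutation adjusted p = 0.109), 0.0943 for Hoxb6 (permutation adjusted p = 0.803) and 0.378 for Hoxb7 (permutation adjusted p = 0.398). As deviations from the group means over 15 mice, r was 0.926 for Hoxb5, 0.909 for Hoxb3 and 0.913 for Hoxb2.

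Most other relations rested on DSS_ICB 3. Over 15 mice, 27 of 44 had a permutation adjusted p under 0.05 by Pearson r, and 3 of 44 without that mouse. By Spearman rho the counts were 5 and 4. Those by Pearson r with the muscle level were positive for Hoxa11, Hoxb2 to Hoxb5 and Hoxb7, and negative for Hoxa2, Hoxa3, Hoxa6, Hoxa9, Hoxb9, Hoxb13 and Hoxd13. For Hoxb13 and the epithelial level r was 0.936 (permutation p = 0.00351, adjusted p = 0.0137) and rho 0.468 (permutation p = 0.0814, adjusted p = 0.199) over 15 mice, and r was 0.479 (permutation adjusted p = 0.358) without DSS_ICB 3. Hoxb4 and the epithelial level gave rho of -0.793 (permutation p = 0.00068, adjusted p = 0.00748) over 15 mice and -0.745 (permutation p = 0.00302, adjusted p = 0.0332) without DSS_ICB 3. By Pearson r that pair was at -0.858 (permutation adjusted p = 0.00297) over 15 mice and at -0.664 (permutation adjusted p = 0.104) without DSS_ICB 3, so it passed there by rank alone. The labels name no batch, so no relation could be recomputed within one, and the part of these marker levels in the treatment comparisons was not tested.

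**Figure D5:**
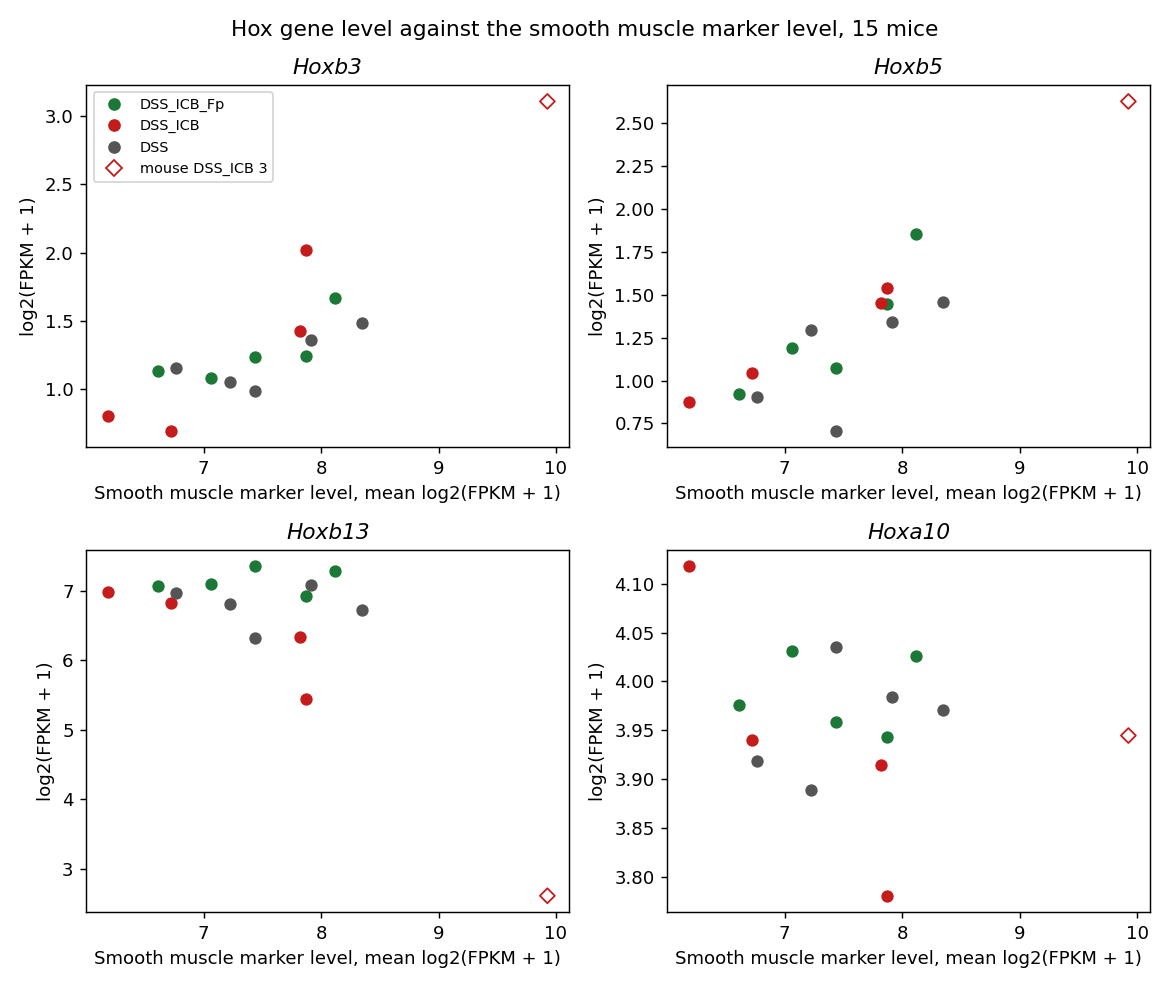
Level of Hoxb3, Hoxb5, Hoxb13 and Hoxa10 on the log2(FPKM + 1) scale against the smooth muscle marker level of each of 15 mice; each panel has its own vertical range. Hoxb3 and Hoxb5 rise with the marker level with and without the open diamond (DSS_ICB 3), and Hoxb13 is low in that mouse.

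Of the noncoding transcripts of the clusters, Mir196a-1, Hoxa11os and Hottip had their lowest levels in DSS_ICB 3 and DSS_ICB 5, as Hoxb13 and Hoxb9 did. Of 14 listed, 12 were matched and 5 tested, and none passed in any comparison with limma. In DSS_ICB_Fp against DSS_ICB, 3 of 5 were higher at an unadjusted p under 0.05, where 9.34% of all genes tested were. Without DSS_ICB 3 the unadjusted limma p was 0.0536 for Mir196a-1, 0.0525 for Hottip and 0.0218 for Hoxa11os. Mir196a-1, the hairpin gene between Hoxb13 and Hoxb9, was at 29.6, 30.8, 37.5, 15.1 and 39.7 FPKM in DSS_ICB_Fp mice, 25.5, 25.9, 1.80, 19.1 and 7.52 FPKM in DSS_ICB mice and 26.0, 22.02, 21.6, 21.3 and 32.5 FPKM in DSS mice. The groups overlapped, and the fitted log2 change of DSS_ICB_Fp against DSS_ICB was 1.23 ± 0.50 (SE, limma adjusted p = 0.179), 0.68 ± 0.33 without DSS_ICB 3 and 0.31 ± 0.26 without DSS_ICB 3 and DSS_ICB 5. These are values of the annotated hairpin gene and are not read as levels of the mature miRNA.

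Hoxa11os, the antisense partner of Hoxa11, was at 23.2, 24.8, 19.8, 12.6 and 27.5 FPKM in DSS_ICB_Fp mice, against 15.9, 18.7, 3.52, 11.7 and 4.496 FPKM in DSS_ICB mice. The groups overlapped, and the log2 change was 1.12 ± 0.37 (SE, limma adjusted p = 0.123), 0.83 ± 0.32 without DSS_ICB 3 and 0.44 ± 0.24 without DSS_ICB 3 and DSS_ICB 5. Hottip, which lies beside Hoxa13 and is known to keep the tail end of cluster a active, had an estimate of 0.86 ± 0.36 on the log2 scale (SE, limma adjusted p = 0.184), 0.46 ± 0.22 without DSS_ICB 3 and 0.31 ± 0.22 without DSS_ICB 3 and DSS_ICB 5. In DSS_ICB 3, Hoxa11 was the highest of 15 mice and Hoxa11os the lowest. Hoxb5os, antisense to Hoxb5, reached 31.9 FPKM in DSS_ICB 3. Antisense exons overlap 6 of the 22 tested members (Hoxa3, Hoxa7, Hoxa11, Hoxb2, Hoxb3 and Hoxb5), and without a stated strand in the counting their values and those of the partners may be mixed. Hoxa2, Hoxa3, Hoxd10 and Hoxd11 share 15.04%, 8.015%, 5.73% and 10.8% of their exon bases with predicted genes on the same strand.

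Other genes of gut position and of Hox control were counted from lists. Cdx1 and Cdx2, homeobox genes of intestinal epithelium that act upstream of Hox genes in the embryo, averaged 122 ± 14.8 and 5.17 ± 3.12 FPKM in DSS_ICB_Fp mice, 89.8 ± 60.3 and 3.89 ± 2.32 FPKM in DSS_ICB mice and 101 ± 25.9 and 3.90 ± 1.47 FPKM in DSS mice (SD, n = 5 each). Insl5, a hormone of colonic endocrine cells, averaged 51.2 ± 17.0 FPKM in DSS_ICB_Fp mice, 71.9 ± 41.6 FPKM in DSS_ICB mice and 49.4 ± 16.6 FPKM in DSS mice (SD, n = 5 each). It was lowest of 15 mice in DSS_ICB 3, at 19.65 FPKM. Its log2 change in DSS_ICB against DSS was 0.33 ± 0.41 (SE), and 0.73 ± 0.31 without DSS_ICB 3 (limma adjusted p = 0.54). Of the gut position list 6 of 11 were tested and none passed with limma in any comparison, and 2 were higher and 1 lower in DSS_ICB_Fp against DSS_ICB at an unadjusted p under 0.05, where 9.34% of all genes tested were higher and 12.4% lower. In DSS_ICB against DSS 1 was higher at that level, where 7.08% of all genes tested were. It was not Cdx1, Cdx2 or Insl5, whose unadjusted limma p was 0.303, 0.78 and 0.428 there. The counts are over the whole list and not over these genes alone.

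Among cofactors that bind DNA with Hox proteins, Pbx3 and Meis2 were high in DSS_ICB 3. Pbx3 was at 15.01 FPKM there, against 2.63 to 4.61 FPKM in the other mice, and Meis2 at 7.14 FPKM, against 0.653 to 2.27 FPKM, while Pknox1, at 2.75 FPKM there, lay below its median of 3.38 FPKM over 15 mice. Of 9 cofactors 7 were tested, and none passed or had an unadjusted p under 0.05 with limma in any comparison. All 19 Polycomb and trithorax regulators, which hold Hox genes silent or active, were tested, and none passed. At an unadjusted p under 0.05, 2 of these 19 were lower in DSS_ICB_Fp against DSS_ICB, Bmi1 by -0.52 ± 0.16 and Wdr5 by -0.48 ± 0.16 on the log2 scale (SE, limma adjusted p = 0.112 and 0.133), a share near the 12.4% of all genes tested. In DSS_ICB against DSS, 2 of the 19 were higher at that level, where 7.08% of all genes tested were. Of 15 retinoic acid genes 10 were tested and none passed. At an unadjusted p under 0.05, 4 were lower in DSS_ICB_Fp against DSS_ICB, where 12.4% of all genes tested were. In DSS_ICB against DSS 3 were higher, where 7.08% of all genes tested were. In DSS_ICB_Fp against DSS 1 was higher and 1 lower, where 0.591% and 0.82% of all genes tested were.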

How the data were processed

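Per the submitters' processing notes, the authors used FastQC, STAR 2.5 on mm10 and Cuffnorm, and DESeq is also named. The deposited values are FPKM as the authors computed them. Any later scaling across libraries is not given in the sources used here. Depth was estimated from the FPKM steps of 10677 single-transcript genes and holds only without such scaling. Whole reads were not recovered, so no count test was used.

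Genes with at least 1 FPKM in at least 5 libraries were tested (14385) on log2(FPKM + 1), which understates the change of low genes. limma 3.58.1 in R 4.3.3, with trend and robust options, was fitted to all 15 libraries with 1 mean per group, two-sided, with Benjamini-Hochberg adjustment over all genes tested. It was run on simulated data with equal spread in all groups. Here the spread of DSS_ICB mice was often wider, so that run does not tell how the fit behaves on these groups. The limma p-values set a difference of group means against the spread between mice, pooled over the 3 groups. Relations used 100000 permutations, two-sided, adjusted over 44 per setting. Mouse numbers are in accession order within a group.

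Members with full statistics were the 3 with the smallest p where none passed, and Hox genes past an unadjusted p of 0.05 and some genes of the other lists were also named, chosen after their values were seen. A few genes are not reported here. Members, lists and tests were chosen with earlier results of these data known. The gut position list had 10 of 11 genes matched. Alternatives were 2 other scalings, pseudocounts (0.1 or 10), filters (none, or 5 FPKM), sample weights, a fit of the 2 compared groups and leaving out libraries.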

Additional observations from a re-analysis of the deposited data

Results flagged for a closer look

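Of 69 sets of 5 mice (22 genes on the log2(FPKM + 1) scale and the posterior share, in 3 groups), 6 had a highest or lowest value whose gap to the next was over 0.71 of the range of the set, where chance gives about 1 in 20. In DSS_ICB mice, 3 of the 6 were mouse DSS_ICB 3, with Hoxa6 at 0.295 FPKM and Hoxd11 at 4.66 FPKM, both low, and Hoxa11 at 10.3 FPKM, high. In DSS_ICB_Fp mice, Hoxb3 was high in mouse 2 at 2.17 FPKM and Hoxb9 was low in mouse 4 at 14.1 FPKM. In DSS mice, Hoxd13 was low in mouse 2 at 57.0 FPKM. The part of the muscle and epithelial marker levels in these values was not tested.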

How the results depend on the processing

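None of the tested Hox genes passed in any of the 3 comparisons under any alternative, and 15 changes of named genes, with 357 values under an alternative, kept their direction and their side of the threshold. Outside those, in DSS_ICB against DSS, the log2 change turned without DSS_ICB 3 for Hoxa7 (0.02 from -0.05), Hoxa9 (0.03 from -0.17), Hoxa11 (-0.04 from 0.24), Hoxb2 (-0.11 from 0.25) and Hoxb7 (-0.05 from 0.14). Cdx1 (0.01 from -0.49) and Cdx2 (0.23 from -0.12) turned there too. In DSS_ICB_Fp against DSS_ICB, Hoxb2 to Hoxb6 turned from below 0 to 0.04, 0.04, 0.03, 0.07 and 0.08 without that mouse. Hoxa2 (-0.05) and Hoxa3 (-0.01) turned there from above 0. None of these changes passed. The median Hox change in DSS_ICB_Fp against DSS_ICB was -0.0071 with no filter and 0.349 with the filter at 5 FPKM. The log2 change of Hoxb13 in DSS_ICB_Fp against DSS_ICB ranged from 0.43 to 1.84 and that of Hoxd12 from 0.216 to 0.725, with adjusted p from 0.0559 to 0.24 for Hoxd12. With numbers 10 to 13 as posterior, the posterior share was 80.02% in DSS_ICB_Fp mice, 73.37% in DSS_ICB mice and 79.28% in DSS mice, and without members whose gene spans overlap another member it was 92.67% in DSS_ICB_Fp mice, 85.96% in DSS_ICB mice and 92.12% in DSS mice; both follow from the members counted. Over all genes tested, the 19 calls in DSS_ICB_Fp against DSS_ICB became 964 with sample quality weights and 0 in a fit of the 2 compared groups, and the cause was not tested. The count of 27 relations was 3 without DSS_ICB 3. Leaving out each mouse in turn moved the posterior share between 87.9% and 88.7% in DSS_ICB_Fp mice, 79.6% and 85.3% in DSS_ICB mice (the highest without DSS_ICB 3) and 87.2% and 88.1% in DSS mice. No paired analysis was possible because the replicate numbers only follow accession order. With 5 mice a group and the spread of DSS_ICB mice, small changes could not be detected, and Hox genes of a few fragments, such as Hoxc11 with at most an estimated 2.01, gave no usable comparison.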
